A study of Mus musculus with 12 samples.

Results

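The messages that encode the subunits of oxidative phosphorylation complexes II to V were followed in 12 male C57/BL6 mice, in the triceps brachii, which extends the elbow of the forelimb. Members were chosen by gene symbol, which took the Sdh, Uqcr, Cyc1, Cycs, Cox4 to Cox8 and Atp5 symbols together with the mitochondrial messages that do not encode complex I. This gave 51 of the 10187 genes measured, of which 45 are nuclear and 6 are encoded in mitochondrial DNA. Complex II had 4 members, complex III 10, cytochrome c 1, complex IV 16 and complex V 16. The other 4 (Cox4nb, Cox7a2l, Atp5s and Atp5sl) share a name start without being subunits of these complexes, and they are given apart. Cytochrome c is counted with the nuclear subunits below.

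The mice formed 4 groups of 3 that crossed genotype with activity, called IW (inactive wild-type), AW (active wild-type), IM (inactive myostatin-reduced) and AM (active myostatin-reduced). Myostatin-reduced mice carried Mstn, the gene of the muscle growth inhibitor myostatin, with exon 3 floxed, and wild-type mice had normal Mstn. All 12 mice, wild-type included, ate chow with 0.025% tamoxifen for 6 weeks from 4 months of age, which switched on Cre recombinase and removed myostatin in floxed mice. The promoter that drives Cre was not given in the sources used here. From 6 months of age active mice lived alone with a running wheel for 12 weeks, while inactive mice had none, so wheel access and individual housing cannot be told apart. The authors state that the myostatin-reduced and control mice sampled had been matched by their running. Which mouse was matched to which was not given in the sources used here. Mstn itself was 79.7, 138 and 131 in IW, 110.3, 90.1 and 80.8 in AW, 18.3, 17.2 and 21.6 in IM, and 16.1, 8.70 and 13.5 in AM, so all floxed mice lay below all wild-type mice.

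Complex II (succinate dehydrogenase) passes electrons from succinate to ubiquinone, complex III passes them to the carrier cytochrome c, and complex IV (cytochrome c oxidase) passes them to oxygen. Complexes III and IV pump protons, and complex V (ATP synthase) lets the protons return through a rotating ring of c subunits to make ATP. Mitochondrial DNA encodes a few hydrophobic core subunits of complexes III, IV and V and none of complex II, and all other subunits are read from nuclear genes, so the finished complexes combine products of both genomes. Skeletal muscle fibres that contract slowly or are used often are rich in these complexes.

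Values are normalized read counts per gene, not divided by gene length, with an estimated 9024016 to 12184766 reads per mouse, and the 3 values given for a group are replicates 1 to 3 in order. The 6 skeletal fibre markers summed to 137103 to 210133 in every mouse, whereas Ucp1 and Cidea, markers of brown fat, were not among the 10187 genes. A change is the limma estimate on log2(value + 1), and a gene was called at a Benjamini-Hochberg adjusted P-value under 0.05 over 7247 genes tested. In these bulk samples, fewer cells of a type and less RNA per cell cannot be told apart.

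Several members have copies elsewhere in the genome, and how reads with several matches were placed was not given in the sources used here. Windows of 65 bases, the read length, were cut from an annotated transcript of each member and compared with the mm9 genome (NCBIM37). The sequenced reads themselves were not compared. Of the 41 nuclear subunits, 20 had no window with an exact match elsewhere, and in 6 at least 50% of the windows had one: Atp5l (88.4%), Atp5g1 (82.9%), Cox7c (70.6%), Atp5h (56.5%), Cox5b (55.6%) and Uqcrb (50.5%). Among mitochondrial members this held for every window of COX2, COX3, ATP6 and ATP8, for 44.3% of those of COX1 and for none of CYTB. A stretch of chromosome 1 (chr1:24620027-24622404) holds copies of COX3, ATP6, ATP8 and COX2 with 0 differences in 784, 681, 204 and 684 bases. The first window of COX3, which lies in its coding sequence, is shown with its copy, since a read of these letters fits both places:
COX3 on the mitochondrial genome, chrM:8607-8671, plus strand: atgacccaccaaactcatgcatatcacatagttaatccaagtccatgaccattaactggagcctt
Its copy in the nuclear genome, chr1:24620746-24620810, minus strand: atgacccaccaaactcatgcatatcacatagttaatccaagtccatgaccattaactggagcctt

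On a per-length scale, the mean level over 12 mice was 90.4 to 1083 normalized reads per kb in the 20 nuclear subunits with no window elsewhere, with a median of 473. It was 10.1 to 210.0 per kb in the 6 with at least 50% elsewhere, with a median of 138. Low levels per kb of Atp5l (10.1) and Cox7c (14.3), which encode small subunits of complexes V and IV, therefore stood beside repeated sequence, whose part in the levels was not tested. Cox6a1 (22.4 per kb) and Cox8a (35.1 per kb), the forms of their subunits that most tissues use, were low with 8.28% and 15.4% of windows elsewhere, and the non-subunit members Cox4nb, Atp5s and Atp5sl were at 2.99, 11.6 and 16.5 per kb with none. The highest levels per kb were those of the catalytic subunits Atp5b (1700) and Atp5a1 (1083) and of Cox6a2 (1011), the heart and muscle form of a complex IV subunit. Mitochondrial members were at 33.1 (COX1), 46.65 (COX3), 149.5 (CYTB), 209 (COX2), 209 (ATP6) and 339 (ATP8) per kb. All 13 mitochondrial messages summed to 3719 to 5657 per mouse, and all genes together to 927958 to 1080139.

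**Figure D1:**
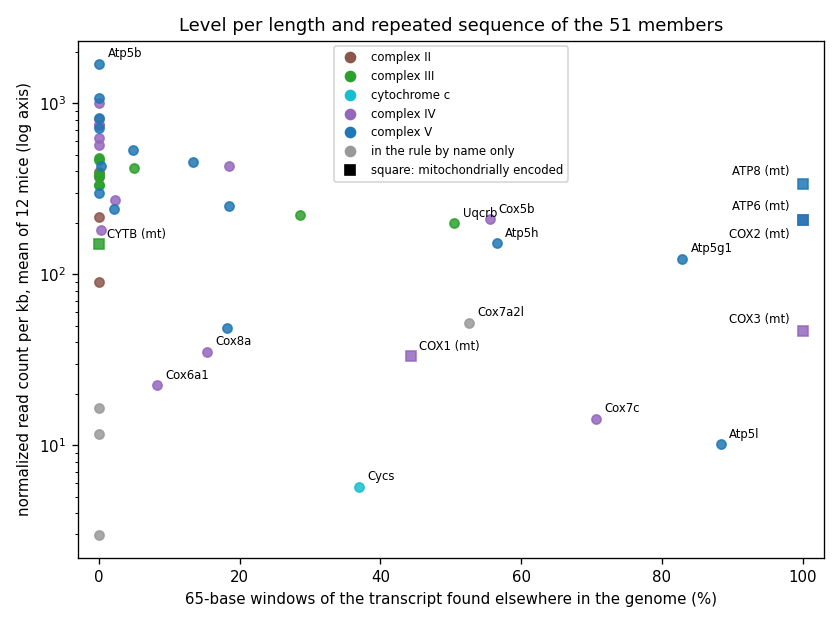
Level per length against repeated sequence for the 51 members. The x axis is the percentage of 65-base windows of the transcript found elsewhere in mm9, the y axis is the mean normalized read count per kb of 12 mice on a log axis, and each point is 1 member; Atp5l and Cox7c lie low on the right at 10.1 and 14.3 per kb, and COX2, COX3, ATP6 and ATP8 (squares) lie at the right edge.

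Promoters of the nuclear members (the 250 bases before the RefSeq transcription start, GRCm38.p6) were found for 35 of 45. On either strand, the core of the NRF1 motif (CGCATGCG), bound by a factor known for nuclear genes of respiration, occurred in 5 of the 35 (14.29%) and in 1.75% of 27025 promoters of all genes. These 5 were Cycs, Cox6a1, Atp5j, Atp5k and Atp5l. The motif of estrogen-related receptors (TCAAGGTCA) occurred in 1 of the 35, Atp5g3, and in 0.422% of all promoters. An ETS motif (CCGGAAGT) occurred in 3 (Uqcrh, Uqcr11 and Atp5h) against 3.23% of all promoters, a YY1 core (AAGATGGC) in 2 against 1.83%, an E box (CAGCTG) in 2 against 14.7%, and a MEF2 motif (CTAAAAATA) in 0 against 0.537%. No motif of the set contains another, and a match is a description of letters, not of binding. Shown are Atp5g3, which had the smallest adjusted P-value for activity, Cox6a1, whose change exceeded that of its muscle partner Cox6a2 by estimate, and Cycs, the nuclear subunit tested that was not called, with the NRF1 core or the estrogen-related receptor motif in capitals:
Atp5g3, chr2:73911327-73911576, minus strand: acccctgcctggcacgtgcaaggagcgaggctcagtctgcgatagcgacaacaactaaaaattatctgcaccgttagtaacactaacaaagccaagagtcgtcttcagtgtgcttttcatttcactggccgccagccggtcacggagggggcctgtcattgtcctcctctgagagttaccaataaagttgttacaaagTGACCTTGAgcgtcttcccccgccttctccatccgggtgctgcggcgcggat
Cox6a1, chr5:115348959-115349208, minus strand: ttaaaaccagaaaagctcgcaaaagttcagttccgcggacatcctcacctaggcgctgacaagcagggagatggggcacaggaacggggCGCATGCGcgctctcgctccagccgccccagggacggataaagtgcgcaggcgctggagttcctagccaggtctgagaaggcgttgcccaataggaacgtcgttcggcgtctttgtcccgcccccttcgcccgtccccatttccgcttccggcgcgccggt
Cycs, chr6:50566570-50566819, minus strand: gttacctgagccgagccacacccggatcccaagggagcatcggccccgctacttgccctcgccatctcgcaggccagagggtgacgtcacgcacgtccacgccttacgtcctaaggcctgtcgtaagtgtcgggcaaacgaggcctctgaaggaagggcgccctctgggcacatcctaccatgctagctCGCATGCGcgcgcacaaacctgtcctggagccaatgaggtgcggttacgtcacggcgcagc
The motif begins 52 bases before the start in Atp5g3, where it reads on the opposite strand, 161 bases before it in Cox6a1 and 61 bases before it in Cycs.

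The nuclear messages were higher in active mice. Of 49 members tested, 39 rose in active mice and none fell, whereas 7.99% of all genes tested were called higher. The 39 were 38 of the 39 nuclear subunits tested and Atp5sl, while 0 of 6 mitochondrially encoded members were called at an adjusted P-value under 0.05 (limma), 1 of them (COX3) having an unadjusted P-value under 0.05. The median log2 change was 0.39 (0.23 to 0.68) over the 39 nuclear subunits and 0.14 (-0.03 to 0.23) over the 6 mitochondrial members, against -0.022 over all genes. Within both genotypes, all active mice lay above all inactive mice in 33 of the 49 members, every one of them nuclear, and in 4.84% of all genes. When each mouse's mean deviation over 10 slow-fibre genes (the slow-fibre score) was added to the model, these medians were 0.33 and 0.24, since the estimate was lower in all 39 nuclear subunits and higher in 5 of the 6 mitochondrial members, and ATP6 was called (0.34; adjusted P-value 0.0313). The difference between nuclear and mitochondrial members was not tested, nor was how fully the counts capture the mitochondrial messages, whose levels per kb are given above.

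**Figure D2:**
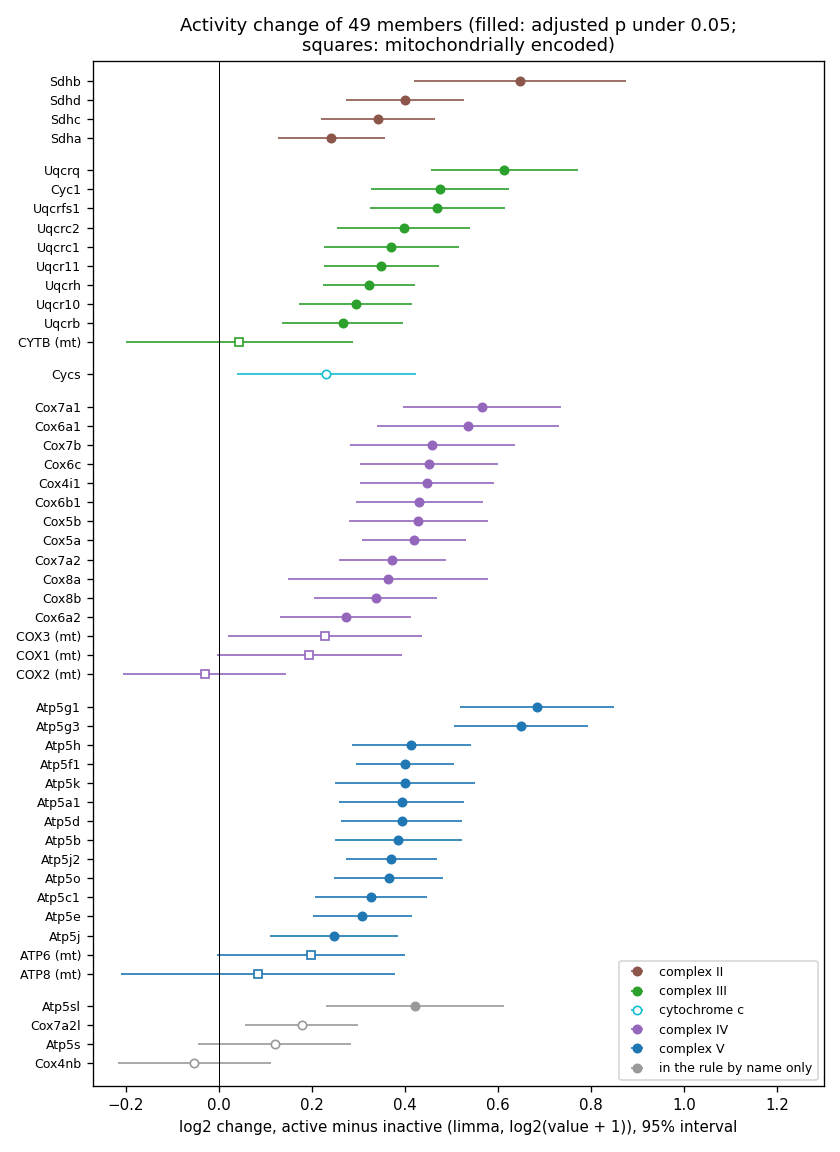
Activity change of the 49 members tested, by complex. The x axis is the log2 change of active minus inactive mice with its 95% interval (limma, 6 against 6 mice), filled symbols have an adjusted P-value under 0.05, squares are mitochondrially encoded; 38 of 39 nuclear subunits are filled, and the 6 squares are open and lie between -0.03 and 0.23.

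All 4 subunits of complex II rose, by a median of 0.37 on the log2 scale. Sdhb, the iron-sulfur subunit that carries electrons from the flavin towards ubiquinone (chr4:140517118-140535108, plus strand), was measured at 422, 321 and 345 in IW, 397, 586 and 586 in AW, 319, 316 and 265 in IM, and 486, 569 and 493 in AM normalized reads. The active myostatin-reduced mice lay above all inactive mice, while AW replicate 1 lay below IW replicate 1. The change was 0.65 (SE 0.11; adjusted P-value 0.0027), a fold of 1.57. Sdhd, a membrane anchor of the complex, was 283, 241 and 249 in IW, 299, 325 and 341 in AW, 232, 224 and 207 in IM, and 294, 336 and 295 in AM, and there all active mice lay above all inactive ones, with a change of 0.40 (SE 0.059; adjusted P-value 0.00179). Sdha, the flavoprotein that oxidizes succinate, changed least, with 1231, 1090 and 1082 in IW, 1232, 1365 and 1324 in AW, 1028, 994 and 932 in IM, and 1200, 1241 and 1141 in AM. Active Sdha values exceeded the inactive values within each genotype, although AM overlapped with IW, and the change was 0.24 (SE 0.053; adjusted P-value 0.0113). Sdhc, the other anchor, rose by 0.34 (SE 0.057).

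All 9 nuclear subunits of complex III rose, and in each of them the active mice lay above the inactive mice within both genotypes. Uqcrq, a small subunit beside cytochrome b (chr11:53241424-53244333, minus strand), rose most and had 191, 162 and 166 in IW, 217, 248 and 260.3 in AW, 145, 132 and 124 in IM, and 211, 258 and 208 in AM. Its values in the 6 active mice were all above those in the 6 inactive mice, a change of 0.61 (SE 0.073; adjusted P-value 0.00113) and a fold of 1.53. Cyc1, the cytochrome c1 that hands electrons to cytochrome c, had 445, 375 and 411 in IW, 481, 553 and 556 in AW, 364, 347 and 313 in IM, and 478, 576 and 485 in AM, and rose by 0.48 (SE 0.068; adjusted P-value 0.00179). Uqcrb, another small subunit and the one that rose least, had 108, 94.0 and 106 in IW, 109.6, 122 and 131 in AW, 92.6, 89.4 and 88.6 in IM, and 101, 113 and 120.1 in AM, and its change was 0.27 (SE 0.06; adjusted P-value 0.0124). In Uqcrb the lowest AM mouse lay below the highest IW mouse. The Rieske iron-sulfur protein Uqcrfs1 rose by 0.47, the core proteins Uqcrc1 and Uqcrc2 by 0.37 and 0.40, and the hinge protein Uqcrh, which helps dock cytochrome c, by 0.32.

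Cytochrome c itself was the nuclear subunit tested that was not called. Cycs had 21.5, 17.5 and 16.7 in IW, 17.2, 20.8 and 21.0 in AW, 16.2, 13.5 and 13 in IM, and 16.6, 19.0 and 20.9 in AM, so IW replicate 1 was the highest mouse of all and the wild-type groups overlapped. Its activity change was 0.23 (SE 0.089; adjusted P-value 0.1), with an unadjusted P-value of 0.0222. In myostatin-reduced mice alone the change was 0.38 (SE 0.13; adjusted P-value 0.0788). Its level per kb, 5.71, was the lowest of the nuclear subunits and rests on a long annotated transcript, 36.9% of whose windows occur elsewhere.

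In complex IV all 12 nuclear subunits tested rose, with a median of 0.43. The largest estimates were those of Cox7a1 and Cox6a1, and subunits 7a and 6a each have a heart and muscle form and a form of most other tissues. Cox7a1, the heart and muscle form (chr7:30969190-30971047, plus strand), had 194, 172 and 179.7 in IW, 211, 279.8 and 287 in AW, 159, 151 and 146 in IM, and 218, 264 and 227 in AM, with every active mouse above every inactive one. Cox7a2, its partner form, had 127, 121 and 127 in IW, 145, 159.7 and 174 in AW, 118, 109 and 110.1 in IM, and 139, 155 and 154 in AM, and again the 6 active mice lay above the 6 inactive mice. Both rose, Cox7a1 by 0.57 (SE 0.078; adjusted P-value 0.00179) and Cox7a2 by 0.37 (SE 0.053; adjusted P-value 0.00179).

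For subunit 6a the less abundant form had the larger estimate. Cox6a1, the form of most tissues (chr5:115795651-115798990, minus strand), had 10.5, 11.4 and 10.9 in IW, 13, 16.7 and 18.1 in AW, 9.80, 9.64 and 9.09 in IM, and 12.6, 16.8 and 15 in AM. Its active values, although low, were all above the inactive ones, with a change of 0.54 (SE 0.091; adjusted P-value 0.00308). Cox6a2, the heart and muscle form and the abundant one, had 691, 579 and 643 in IW, 675, 759 and 789.9 in AW, 563, 596 and 542 in IM, and 637, 765 and 739.8 in AM, where AW replicate 1 lay below IW replicate 1. Of the nuclear complex IV subunits in the main test it had the smallest change, 0.27 (SE 0.065; adjusted P-value 0.0164). The log2 ratio of Cox6a2 to Cox6a1 was 6.04, 5.66 and 5.89 in IW against 5.70, 5.51 and 5.45 in AW, which overlap. In the myostatin-reduced groups it was 5.84, 5.95 and 5.90 for IM and 5.66, 5.51 and 5.62 for AM, which do not. These ratios, which were not tested, were on average lower in both active groups.

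The subunit 7a ratio of Cox7a1 to Cox7a2 went the other way. It was 0.42, 0.46 and 0.40 in IM and 0.65, 0.77 and 0.56 in AM on the log2 scale, without overlap. In wild-type mice it was 0.61, 0.51 and 0.50 in IW and 0.54, 0.81 and 0.72 in AW, where AW replicate 1 fell within the inactive range. For subunit 8, Cox8b (heart and muscle form) had 246, 222 and 262 in IW, 290.2, 304 and 325 in AW, 249, 230.1 and 218 in IM, and 268, 322 and 296 in AM. Cox8a (the other form) had 16.6, 17.3 and 17.5 in IW, 16.5, 25.4 and 24.2 in AW, 17.9, 15 and 14.8 in IM, and 19.1, 23.2 and 21.9 in AM, with AW replicate 1 below the lowest IW mouse. They rose by 0.34 (SE 0.061; adjusted P-value 0.00442) and 0.36 (SE 0.099; adjusted P-value 0.0297), and their log2 ratio, 3.58 to 4.13 over the 12 mice, overlapped between active and inactive mice in both genotypes. Cox4i2 and Cox6b2, partner forms of Cox4i1 and Cox6b1, were not among the 10187 genes, and Cox4i1 and Cox6b1 rose by 0.45 and 0.43.

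**Figure D3:**
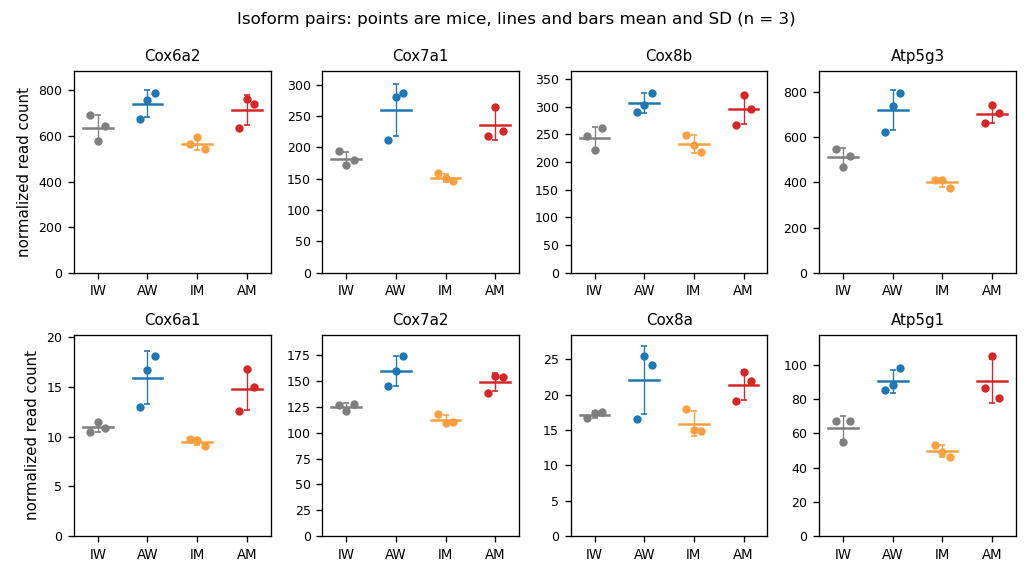
Normalized read counts of the isoform pairs of complex IV and of the c subunit of complex V. Each panel is 1 gene on its own linear y axis from 0, points are mice, the line is the group mean and the bar the SD (n = 3 per group), and in each of the 8 panels the mean of AW exceeds that of IW and the mean of AM exceeds that of IM.

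In complex V all 13 nuclear subunits tested rose, with a median of 0.39, and the c subunit genes had the largest estimates. Atp5g1 and Atp5g3 encode the same mature c subunit, which forms the rotating ring, with different import sequences. Atp5g1 (chr11:95930166-95936984, minus strand) had 67.2, 55.0 and 67.2 in IW, 85.1, 88.0 and 98.1 in AW, 53.0, 49.3 and 46.1 in IM, and 86.4, 105 and 80.5 in AM, and Atp5g3 (chr2:73746504-73749383, minus strand) had 549.8, 469.6 and 517 in IW, 622, 738 and 796 in AW, 412, 410.0 and 376 in IM, and 661, 743 and 708 in AM. In both genes all 6 active mice lay above all 6 inactive mice, and within inactive mice all IM values lay below all IW values. Atp5g1 rose by 0.68 (SE 0.077; adjusted P-value 0.00107), a fold of 1.61, and Atp5g3 by 0.65 (SE 0.066; adjusted P-value 0.000579), a fold of 1.57. In all, 0.883% and 0.994% of all genes tested had a larger positive change. As given above, 82.9% of the windows of Atp5g1 occur elsewhere, and none of those of Atp5g3 occur elsewhere in the genome. The remaining c subunit gene, Atp5g2, was not among the 10187 genes. The log2 ratio of Atp5g3 to Atp5g1 was 2.82 to 3.14 over the 12 mice and overlapped between active and inactive mice within each genotype.

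The other complex V subunits tested had smaller estimates. The smallest called change was that of Atp5j, a part of the peripheral stalk, which had 36.1, 29.7 and 30.4 in IW, 34.0, 36.3 and 38.5 in AW, 28.0, 28.4 and 28.4 in IM, and 32.2, 38.8 and 35.9 in AM and rose by 0.25 (SE 0.064; adjusted P-value 0.0231); AW and IW overlapped in it, because IW replicate 1 lay above AW replicate 1. The catalytic head subunits Atp5a1 and Atp5b rose by 0.39 and 0.39, and the rotor subunits Atp5c1, Atp5d and Atp5e by 0.33, 0.39 and 0.31. Stalk subunits Atp5f1, Atp5h and Atp5o rose by 0.40, 0.41 and 0.37, and the small membrane subunits Atp5j2 and Atp5k by 0.37 and 0.40.

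Cox7c and Atp5l had means under 10 and were not in the main test. Cox7c had 6.65, 8.21 and 6.89 in IW, 7.62, 8.30 and 9.13 in AW, 7.17, 7.09 and 8.36 in IM, and 7.98, 8.40 and 7.02 in AM, and Atp5l had 4.13, 4.34 and 4.49 in IW, 6.15, 4.57 and 5.87 in AW, 6.75, 5.91 and 3.86 in IM, and 5.96, 5.08 and 4.90 in AM. Active and inactive mice overlapped in Cox7c, and in Atp5l within the myostatin-reduced mice. In a fit without the filter their changes were 0.11 (SE 0.085; adjusted P-value 0.423) and 0.13 (SE 0.12; adjusted P-value 0.508), below the smallest estimate of the tested nuclear subunits of their complexes, and both genes have the repeated sequence given above.

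None of the 6 members read from mitochondrial DNA was called for activity (limma), whereas 2 of the 7 complex I messages of the same genome were called higher, ND5 by 0.64 (adjusted P-value 0.00113) and ND3 by 0.45 (adjusted P-value 0.0052); these are named after their values were seen. CYTB, the cytochrome b core of complex III, had 147, 213 and 159 in IW, 194, 173 and 147 in AW, 179, 184 and 133 in IM, and 199.99, 162 and 163 in AM, and the groups overlapped. Its change was 0.044 with a 95% interval of -0.20 to 0.29 (adjusted P-value 0.817). COX1, the catalytic subunit of complex IV, had 44.9, 49.7 and 46.4 in IW, 62.7, 43.4 and 42.4 in AW, 53.3, 43.3 and 46.1 in IM, and 56.2, 63.1 and 61.5 in AM, and COX2, which receives electrons from cytochrome c, had 128, 167 and 157 in IW, 144, 119 and 126 in AW, 150.2, 122 and 142 in IM, and 138, 157 and 165 in AM. In COX1 the AM mice lay above all IM mice, whereas AW replicates 2 and 3 lay below all IW mice. The changes were 0.20 (95% interval -0.004 to 0.39; adjusted P-value 0.172) and -0.03 (-0.21 to 0.15; 0.83).

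COX3, the remaining core subunit of complex IV, had 44.1, 30.8 and 43.1 in IW, 34.8, 46.5 and 37.3 in AW, 26.7, 27.9 and 30.7 in IM, and 36.2, 40.6 and 40.2 in AM. Here the IM mice were low, with all AM mice above them, and the wild-type groups overlapped. Its change of 0.23 (95% interval 0.021 to 0.44) had an unadjusted P-value of 0.0332 and an adjusted P-value of 0.127. ATP6, the channel subunit beside the c ring, had 123, 161 and 132 in IW, 191, 142 and 134 in AW, 115, 132 and 133 in IM, and 136, 156 and 156 in AM, and ATP8, its small neighbour, had 61.9, 92.3 and 64.7 in IW, 82.4, 59.9 and 48.2 in AW, 66.1, 66.7 and 50.6 in IM, and 73.3, 74.9 and 90.0 in AM. These genes share 43 bases, so their reads cannot be fully separated, and in both the AM mice exceeded the IM mice while AW and IW overlapped. The changes were 0.20 (95% interval -0.004 to 0.40; adjusted P-value 0.174) and 0.084 (-0.21 to 0.38; 0.704). For 5 of the 6 the interval holds the smallest change called among nuclear subunits, 0.24, and for COX2 it ends at 0.15.

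The scale matters for the mitochondrial members. The deposited values relate them to the nuclear messages. When each was taken as a share of the 13 mitochondrial messages of the same mouse, the activity changes of CYTB, COX1, COX3, ATP6 and ATP8 became negative, at -0.20, -0.049, -0.014, -0.050 and -0.16, and that of COX2 was -0.28 (adjusted P-value 0.0126). This is a change of a share, not of the level of COX2, which had the change of -0.03 given above. The 6 members together made up 11.9% to 15.2% of the 13 messages, whose sum was 4022 to 4943 in IW, 4406 to 5657 in AW, 3719 to 3928 in IM and 4461 to 5343 in AM, and ND5 and ND3, which rose, are part of that sum.

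The mouse-by-mouse pattern shows both genomes. The median deviation of the 39 nuclear subunits from their own means over 12 mice was 0.013, -0.18 and -0.098 in IW, 0.10, 0.27 and 0.33 in AW, -0.24, -0.31 and -0.39 in IM, and 0.082, 0.26 and 0.15 in AM on the log2 scale. Active and inactive mice were separate in each genotype, and complexes II, III, IV and V gave medians at most 0.13 apart in any mouse. For the 6 mitochondrial members the medians were -0.16, 0.21 and -0.081 in IW, 0.23, -0.084 and -0.19 in AW, 0.019, -0.16 and -0.18 in IM, and 0.057, 0.14 and 0.19 in AM. They overlapped between activity levels in wild-type mice and not in myostatin-reduced mice. Among the 3 mice of IW and again among the 3 of AW, the mouse with the highest nuclear median had the lowest mitochondrial median, and the mouse with the lowest nuclear median had the highest. In IM the order was the same for both genomes, and in AM the mouse with the lowest nuclear median also had the lowest mitochondrial median.

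**Figure D4:**
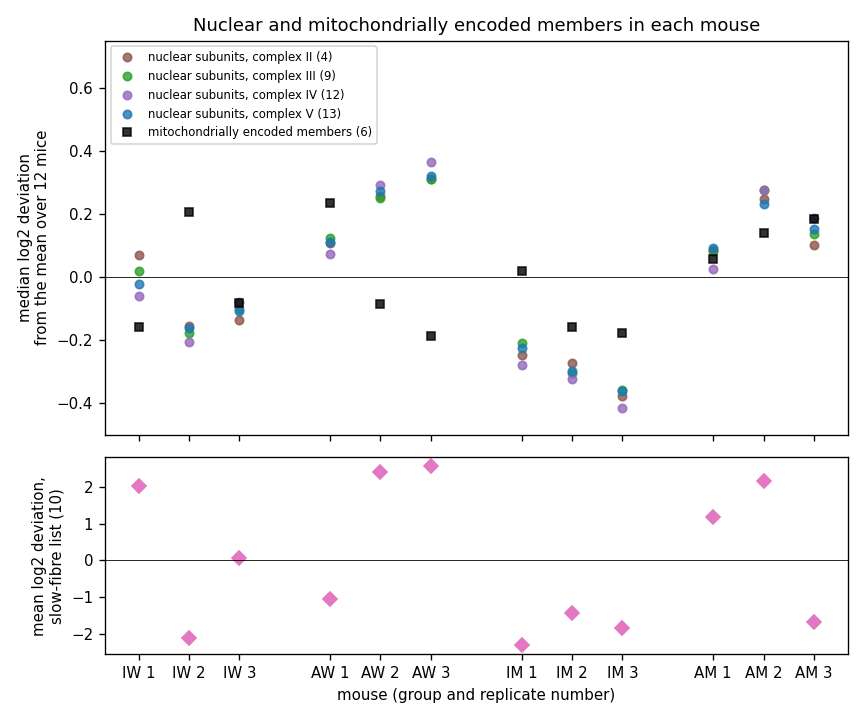
Median log2 deviation from the mean over 12 mice, by mouse, for the nuclear subunits of each complex (circles) and the mitochondrially encoded members (squares), with the mean deviation of 10 slow-fibre genes in the lower panel. Nuclear medians of active mice lie above those of inactive mice in both genotypes, mitochondrial medians overlap in IW and AW, and AW 1 and AM 3 have a negative slow-fibre score.

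Fibre and vessel markers moved too. Of 6 skeletal fibre genes, the fast myosin Myh1 rose by 1.51 and the fastest myosin Myh4 fell by 0.57. The slow-fibre score was 2.02, -2.10 and 0.076 in IW, -1.05, 2.38 and 2.56 in AW, -2.30, -1.43 and -1.82 in IM, and 1.18, 2.14 and -1.67 in AM, so AW replicate 1 and AM replicate 3 were low for active mice and IW replicate 1 high for an inactive one. The 11 slow-fibre genes summed to 84.5 to 1329 in IW, 142 to 1773 in AW, 73.2 to 104 in IM and 111 to 1303 in AM, and the 10 tested were all estimated higher, with a median of 1.90 (1.28 to 2.68), 5 at an unadjusted P-value under 0.05 and 1 called (Casq2, 1.34). With the score in the model 35 members were called for activity, 4 fewer, all higher. Of 7 endothelial genes 6 were called higher in active mice, with a median change of 0.49, and their sums were 277 to 357 in IW, 282 to 483 in AW, 250.2 to 263 in IM and 327 to 537 in AM; their part in the result was not tested. None of the 4 fibroblast genes, the 1 adipocyte gene, the 1 macrophage gene or the 2 Schwann cell genes tested was called for activity (limma), with 2 fibroblast genes at an unadjusted P-value under 0.05.

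Genes of proteins that build the complexes or associate with them were counted in the same way, against the 7.99% of all genes called higher. For complex II, 1 of 3 tested assembly factors rose (Sdhaf2, which adds flavin to Sdha, by 0.23), and for complex III 2 of 4 (Ttc19 by 0.23 and Uqcc by 0.21). For complex IV 2 of 12 rose, namely Cox10, an enzyme of heme A synthesis, by 0.24 and Fam36a by 0.21. The complex V list is not of assembly factors alone, and 3 of 5 rose. These were Tmem70 by 0.29, the inhibitor Atpif1 by 0.26 and the associated small protein Usmg5 by 0.29. Of 23 tested factors that copy mitochondrial DNA or that transcribe, process or translate its messages 6 rose: Mterfd3 (0.43), Tsfm (0.41), Supv3l1 (0.34), Tufm (0.30), Ptcd3 (0.29) and Gfm1 (0.21). Tfam and Polrmt, the packaging factor and the polymerase of mitochondrial DNA transcription, had changes of -0.011 and -0.12 (adjusted P-values 0.907 and 0.165). None of the genes in these lists was called lower.

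Of the 4 members without a subunit role 1 was called for activity, and differences among them were not tested. Atp5sl, a gene named for its likeness to Atp5s, had 41.0, 30.4 and 37.7 in IW, 38.8, 47.3 and 50.2 in AW, 31.7, 31.7 and 29.5 in IM, and 38.8, 48.5 and 48.4 in AM and rose by 0.42 (SE 0.088; adjusted P-value 0.00929). Cox7a2l, a factor that joins complexes into supercomplexes, changed by 0.18 (SE 0.056; adjusted P-value 0.0503), and Atp5s by 0.12 (SE 0.076; adjusted P-value 0.302). Cox4nb begins 177 bases from Cox4i1 on the opposite strand of chromosome 8 and changed by -0.052 (SE 0.076; adjusted P-value 0.676), next to the rise of 0.45 in Cox4i1.

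Within wild-type mice (AW against IW) no member passed the threshold (limma), with a smallest adjusted P-value of 0.0611, and only 0.0276% of all genes were called higher. At an unadjusted P-value under 0.05 there were 39 of 49 members and 1067 of the 7247 genes. The 39 nuclear subunits had a median change of 0.32 (0.081 to 0.52), and 33 of 49 members lay higher in all AW mice than in all IW mice, against 9.09% of all genes. The largest estimates were those of Atp5g1 (0.52, SE 0.11), Sdhb (0.51, SE 0.15) and Cox7a1 (0.50, SE 0.11). The 6 mitochondrial members ranged from -0.21 (COX2) to 0.16 (ATP6). Without AW replicate 1, the active mouse with a low slow-fibre score, 26 members were called, all higher. With all 12 mice, 35 were called with sample weights, 8 with a mean of at least 50 and 3 with the slow-fibre covariate, all higher. The 10 slow-fibre genes (median 1.27) and the 7 endothelial genes (median 0.243) tested were all estimated higher in AW, with none called (limma; 1 and 0 at an unadjusted P-value under 0.05), and their part in the result was not tested.

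Within myostatin-reduced mice (AM against IM) 38 of 49 members rose, against 5.31% of all genes called higher. They were 37 of the 39 nuclear subunits, the exceptions being Cycs and Cox8a, and Atp5sl. The nuclear median was 0.46 (0.28 to 0.85), with Atp5g1 at 0.85 (SE 0.11; adjusted P-value 0.00615) and Atp5g3 at 0.82 (SE 0.094; adjusted P-value 0.00287). All AM mice lay above all IM mice in 45 of 49 members, which included the 39 nuclear subunits and COX1, COX3, ATP6 and ATP8, and in 14.5% of all genes. None of the 6 mitochondrial members was called (limma; 2 at an unadjusted P-value under 0.05), and their median was 0.29, with COX3 at 0.44 (SE 0.14; adjusted P-value 0.063). The count rested on single mice, since it was 14 without IM replicate 3, 15 without AM replicate 2 and 22 without IM replicate 2. It was 29 once the slow-fibre score entered as a covariate. Markers moved here too, since Myh1 rose by 2.29 and Myh4 fell by 0.69 (adjusted P-values 0.00813 and 0.0368), the 10 slow-fibre genes tested were all estimated higher (median 2.51, 1 called), and the 7 endothelial genes were higher in all AM than in all IM mice (median 0.69, 4 called). Their part in the result was not tested.

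**Figure D5:**
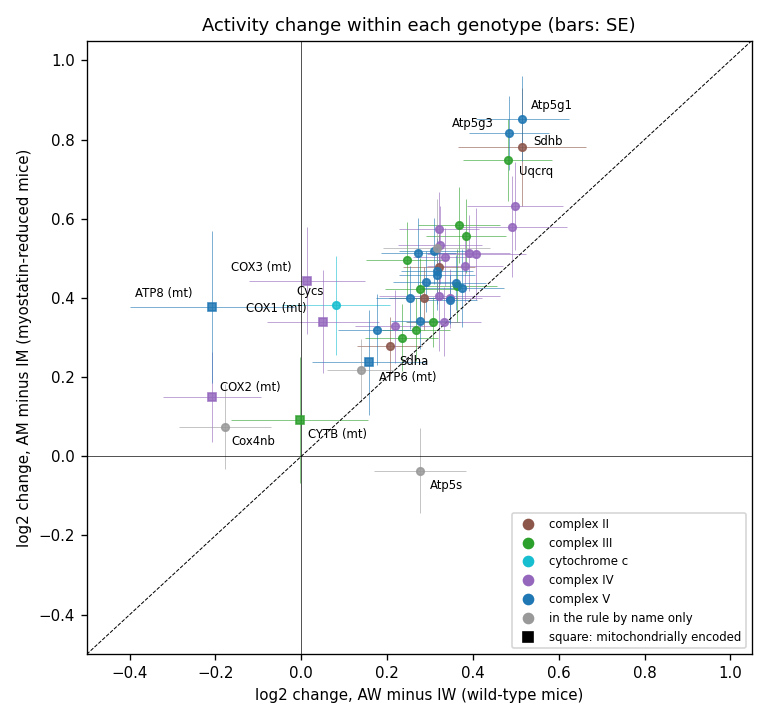
Activity change of each of 49 members within wild-type mice (x axis, log2 AW minus IW) and within myostatin-reduced mice (y axis, log2 AM minus IM), with SE bars, squares for mitochondrially encoded members and a dashed line of equality. The 39 nuclear subunits lie on or above the line, with Atp5g1 at 0.52 and 0.85, and no member was called for the difference.

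The difference between these activity changes was tested as an interaction. No member was called, nor was any gene (0% of 7247; limma), and the smallest adjusted P-value of a member was 0.89. At an unadjusted P-value under 0.05 there were 4 members and 297 of all genes. The 4 were Atp5g3 (0.33, 95% interval 0.044 to 0.62), Atp5g1 (0.34, 0.006 to 0.67), COX3 (0.43, 0.014 to 0.84) and COX2 (0.36, 0.008 to 0.71). The estimate was positive in 48 of 49 members, with a median of 0.14, while Atp5s was negative.

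Myostatin reduction gave smaller differences, and none of the 49 members was called across activity levels (limma), with 2.21% of all genes called lower. At an unadjusted P-value under 0.05 there were 29 members, 28 of them subunits, and 1628 of the 7247 genes. The 39 nuclear subunits were all below 0, with a median of -0.15 (-0.23 to -0.06) against -0.005 over all genes. Uqcrh was nearest to the threshold, at -0.17 (SE 0.045; adjusted P-value 0.0503). Its values were 226, 203 and 225 in IW, 259.9, 268 and 281 in AW, 198, 193 and 185 in IM, and 233, 246 and 249 in AM, and it was the member in which all myostatin-reduced mice lay below all wild-type mice at both activity levels, as in 2.55% of all genes. The mitochondrial members had a median of 0.021, from -0.22 in COX3 to 0.16 in COX1. Of the markers, the 10 slow-fibre genes tested were all estimated below 0 (median -1.383), Myh1 was at -0.66 (adjusted P-value 0.11) and the muscle creatine kinase Ckm at 0.31 (adjusted P-value 0.0713), with none of them called (limma; 0 slow-fibre genes at an unadjusted P-value under 0.05). Without AW replicate 1, 13 members were called, 12 of them lower, without IW replicate 2 there were 3, and without AM replicate 2 there was 1.

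The genotype difference was also estimated at each activity level. In IM against IW the nuclear median was -0.21, and all IM mice lay below all IW mice in 35 of 49 members, against 12.7% of all genes. No member was called (limma), with 1.13% of all genes called lower. At an unadjusted P-value under 0.05 there were 29 members and 1262 of the 7247 genes. The smallest adjusted P-value was that of Atp5g3, at -0.36 (SE 0.094; adjusted P-value 0.0708), followed by Uqcrq at -0.37 (SE 0.10; adjusted P-value 0.0865). Markers moved with this comparison, since Myh1 fell by 1.44 (adjusted P-value 0.0399), and the 10 slow-fibre genes and the 7 endothelial genes tested were all estimated below 0, with medians of -2.005 and -0.222 and none called (limma; 1 of each list at an unadjusted P-value under 0.05). Their part in the result was not tested. In AM against AW 37 of the 39 nuclear subunits were below 0, with a median of -0.068. No member was called in AM against AW (limma; 2 at an unadjusted P-value under 0.05, against 894 of the 7247 genes), and 0.11% of all genes were called lower. There 9 of 10 slow-fibre genes were below 0 (median -0.87) and the 7 endothelial genes above 0 (median 0.146), with none called (limma; 0 at an unadjusted P-value under 0.05 in both lists). The group mean of IM was the lowest of the 4 in all 39 nuclear subunits, and the highest mean was that of AW in 37 and of AM in 2. Among the 6 mitochondrial members IM was lowest in 4, and the highest mean was that of AM in 4 and of AW in 2.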

How the data were processed

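Polyadenylated RNA from the triceps brachii of 12 mice was sequenced by the authors as 65-base single-end reads (Illumina Genome Analyzer IIx), mapped with CASAVA (version not stated) to mm9 and counted in RefSeq exons, summed to genes. For messages of mitochondrial DNA (13 in the table, all coding for proteins) the reference was the mitochondrial genome, apart from the count of nuclear genes. Values deposited are a signal, namely a read count that the authors normalized to an equal trimmed mean of the non-mitochondrial genes in all samples. It is not divided by length, and the use of strand was not given in the sources used here. The table held 10187 genes, 0 columns of no sample and 0 identical columns, and the highest group mean of every gene was at least 3.

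The value of 1 read, estimated from the step between low values, was 0.077 to 0.105, which gave 9024016 to 12184766 reads per mouse. A floor of 3 reads was then 0.231 to 0.316, for counting error only, since copied reads are not independent molecules. Between 20 and 50, only 58.5% to 66.8% of values were whole multiples of the step (tolerance 0.006), so no test of counts was run.

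Groups and replicate numbers came from the sample titles. A model with a mean per group was fitted to log2(value + 1) in all 12 mice with limma 3.58.1 in R 4.3.3 (eBayes with a trend) for 7247 genes with a mean of at least 10, 49 of the members among them. Log2 changes understate those of low genes. Two-sided P-values were adjusted over the 7247 genes by the method of Benjamini and Hochberg, and the fit was tested on simulated data. Intervals are 95%. Contrasts were activity and genotype across and within levels of the other factor, and the interaction.

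The members and lists were chosen with earlier results of these data known. Full values are given for mitochondrial members, isoform pairs and, in each complex, the 2 called nuclear subunits with the largest activity change and the one with the smallest. Positions, per-kb levels (shortest annotated transcript in the consensus coding set) and the match of 65-base windows used the GENCODE vM1 annotation and genome of NCBIM37, the files' build. Promoters came from RefSeq (GRCm38.p6).

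Titles use the numbers 1, 2 and 3 in each group for different mice, and do not say which were matched for running. Same-numbered IM and AM mice deviated together (r = 0.24, 0.17 and 0.32 across genes), which is a hint from the data and not from the design, and the other 5 pairs of groups did not do so in all 3 numbers. The main fit had no block, and a block was an alternative. Alternatives were 2 pseudocounts, 2 filters, 2 scalings, no trend, sample weights, the block, a slow-fibre covariate, the 6 mice of a comparison alone, mitochondrial values as shares of their sum, and each mouse left out.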

Additional observations from a re-analysis of the deposited data

How the results depend on the processing

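Activity called 39 members, and 35 to 42 under the alternatives tried, including each mouse left out (36 to 41). With the slow-fibre score as a covariate Uqcrb, Cox6a2, Cox8a, Atp5j and Atp5sl were no longer called, at log2 changes of 0.223, 0.201, 0.284, 0.177 and 0.315 against 0.267, 0.273, 0.364, 0.248 and 0.421 without it (adjusted P-values 0.0653 to 0.169 with it). No nuclear subunit changed sign for activity. In wild-type mice the count of 0 became 8 with a mean of at least 50, 35 with sample weights and 3 with the slow-fibre covariate, and 0 to 26 with a mouse left out. In myostatin-reduced mice it was 14 to 40 with a mouse left out. For genotype the count of 0 became 2 with a mean of at least 50, 1 with median-ratio scaling, 1 with quantile normalization, 5 with sample weights and 1 with mitochondrial values as shares, and 0 to 13 with a mouse left out; within inactive mice it was 1 with sample weights, 1 with only the 6 mice compared and 0 to 1 with a mouse left out. The interaction and genotype within active mice gave 0 throughout. With the replicate number as a block, activity called 39 members, activity in myostatin-reduced mice 35, and each other comparison 0; for comparisons other than AM against IM the mice share only a number.

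Mitochondrial members changed sign for activity as follows. With values as shares of their sum, CYTB was -0.204, COX1 -0.0494, COX3 -0.0136, ATP6 -0.0497 and ATP8 -0.161. With sample weights CYTB was -0.0436 and ATP8 -0.0221, and COX2 was 0.0073 with quantile normalization and 0.0971 with the slow-fibre covariate. With a mouse left out CYTB was -0.0306 to 0.124, COX2 -0.0857 to 0.0091 and ATP8 -0.0168 to 0.174. The others kept their sign there, with COX1 at 0.106 to 0.244, COX3 at 0.147 to 0.273 and ATP6 at 0.120 to 0.253. With the slow-fibre covariate CYTB was 0.164, COX1 0.322, ATP6 0.341 (called) and ATP8 0.324, each over 1.5 times its value without it, and COX3 was 0.112. COX3 was called with sample weights. The cause of these shifts was not tested. Cox7c and Atp5l, with means under 10, could be tested only without the filter on low values, and the comparisons within 1 genotype or activity level had 3 mice a group.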
